A study of Mus musculus with 36 samples.

Results

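The genes described here are 32 genes of the cell cycle and of DNA replication, measured in mouse liver RNA on whole-transcript Affymetrix gene arrays. They are subunits and loaders of the replicative helicase, enzymes that supply nucleotides, the replication clamp, cyclins, Cdk1, mitotic kinases and checkpoint proteins, and proteins of the mitotic chromosome and spindle. A gene was taken where the platform annotation pairs a probe set, the group of probes read out as 1 value, with that gene symbol alone. This gave 31 of the 32 genes, out of 19938 genes on the array with such a probe set, and Ccnb1 is not analysed here. The mice were C57BL/6J, killed at 16 weeks of age after 10 weeks on either normal chow or a high fat diet with 60% of its energy from fat. All were kept in 12 h of light and 12 h of dark with free access to food. Livers were taken at Zeitgeber time (ZT) 0, 4, 8, 12, 16 and 20 h, where ZT0 is lights on and ZT12 lights off. Each of the 12 groups of 1 diet and 1 time holds 3 samples, and thus 18 samples per diet. The labels do not say whether a sample is 1 animal, and a p-value here sets a difference against the scatter of the samples alone. Sex is not given in the sources used here.

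Before a cell copies its DNA, origin recognition proteins with Cdc6 and Cdt1 load the ring of Mcm2 to Mcm7 onto DNA, and this ring later unwinds the helix. Cyclin D and cyclin E kinases release E2F transcription factors from the retinoblastoma protein, and E2F then turns on the helicase and nucleotide genes of S phase. Later, cyclin A, cyclin B and Cdk1 drive entry into mitosis, Aurora and Polo kinases build the spindle, and Bub1, Bub1b and Cdc20 time the separation of chromosomes. Hepatocytes of an adult liver are almost all out of the cycle, and many are polyploid. Liver entry into mitosis after partial hepatectomy is known to be timed by the circadian clock through the kinase Wee1.

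Levels are given as log2(intensity + 16), in which a difference of 1 is a doubling of the offset intensity, and differences are high fat diet minus chow. The number 16 damps noise of dim probe sets and makes their fold changes look smaller. Of the 31 genes, 22 lay above the 30th percentile of all genes, a log2 value of 6.11, and were tested. Aurkb at 6.12 lay just inside this limit and Mki67 at 6.09 just outside. The 95th percentile of 1196 olfactory and vomeronasal receptor genes, which liver is not expected to use, was 6.57, and 14 of the 31 genes exceeded it. The 8 tested genes that did not were Mcm3, Cdt1, Cdk1, Aurka, Aurkb, Bub1b, Cdc20 and Birc5. The mean over all 36 samples was 9.78 for Pcna, 8.74 for Ccnd1 and 8.13 for Tk1, and these were the 3 brightest genes of the set. The 9 genes below the limit were Cdc6, Ccne2, Plk1, Bub1, Top2a, Mki67, Nusap1, Prc1 and Kif11. All 5 genes of the mitotic chromosome and spindle were thus below it. Array medians ran from 75.7 to 95.6 in intensity, samples of 1 group correlated at 0.976 to 0.993, and no 2 arrays of the same group were identical. The 8 hepatocyte markers measured had a summed intensity of 57723 to 72817 in chow samples and 58206 to 68943 in high fat diet samples. At ZT12 these sums did not overlap, with 68429 to 72817 on chow and 62606 to 65779 on the high fat diet.

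Averaged over the day, 7 of the 22 tested genes were higher on the high fat diet and 1 was lower. Of all 13956 genes tested, 11.2% were higher and 9.8% lower by the same rule, a limma adjusted p under 0.05 after Benjamini-Hochberg adjustment over all tested genes. The difference was above 0 for 19 of the 22 genes, against 57.5% of all genes. Its median was 0.09 over the set and 0.02 over all genes. The higher genes were Rrm2, Ccna2, Mcm4, Rrm1, Mcm2, Aurka and Mcm5, and the lower one was Tk1. In bulk tissue, more cells of a cycling type and more RNA per cell cannot be told apart.

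Among the helicase and licensing genes, 3 of 7 tested rose and none fell. Mcm4 (probe set 10437945), a core subunit of the helicase ring, had a mean of 6.83 ± 0.18 on chow and 7.07 ± 0.26 on the high fat diet (SD, n = 18 each). Its samples ran from 6.43 through a median of 6.84 to 7.16 on chow, and from 6.44 through 7.06 to 7.60 on the high fat diet. The ranges overlapped, and the difference was 0.24 ± 0.05 (SE, adjusted p = 0.00141), with the high fat diet mean higher at 6 of 6 times. Mcm2 rose by 0.18 ± 0.05 (adjusted p = 0.00999), and was higher at 5 of 6 times. Mcm5 rose by 0.14 ± 0.05 (adjusted p = 0.0438), a call that was lost in 26 of 47 alternatives. These were leaving out any 1 of 23 samples, quantile normalization, median centring and no intensity filter. Mcm6 and Mcm3 differed by 0.22 ± 0.08 and 0.14 ± 0.06 without being called (adjusted p = 0.0517 and 0.0675). Mcm7 differed by 0.04 (95% interval -0.06 to 0.14) and the loader Cdt1 by 0.02 (-0.08 to 0.11). The 6 ring subunits, which act as a single complex, thus had differences from 0.04 to 0.24, all above 0.

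The genes of nucleotide supply moved in opposite directions. Rrm2 (probe set 10394978), the small subunit of ribonucleotide reductase, which makes the building blocks of DNA, ran from 5.95 through a median of 6.92 to 7.77 on chow. On the high fat diet it ran from 6.82 through 7.41 to 8.44, so the ranges overlapped. The difference was 0.58 ± 0.10 (adjusted p = 3.45e-05), and it was above 0 at 6 of 6 times. Rrm1, the large subunit of the same enzyme, rose by 0.20 ± 0.05 (adjusted p = 0.00648), a call that was lost with median centring of the arrays. Tk1 (probe set 10582809), the cytosolic thymidine kinase that salvages thymidine, fell from 8.33 ± 0.26 to 7.94 ± 0.34 (SD, n = 18 each). Its samples ran from 7.85 through 8.34 to 8.74 on chow and from 7.39 through 8.00 to 8.60 on the high fat diet. The difference of -0.39 ± 0.06 (adjusted p = 1.15e-05) was below 0 at 6 of 6 times, and the 3 samples of each diet did not overlap at 5 of them. A further probe set of Tk1 gave -0.52 ± 0.07. Tyms, which makes thymidylate, differed by 0.04 (-0.04 to 0.11), and Pcna, the sliding clamp of the DNA polymerases, by -0.02 (-0.12 to 0.09). The calls of Rrm2 and Tk1 held in all 47 alternatives tried.

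Neither tested G1 cyclin was called over the day. Ccnd1, the cyclin that answers growth signals, differed by 0.04 (-0.10 to 0.18) and Ccne1, which starts S phase, by 0.06 (-0.02 to 0.15). Among cyclins of later phases, Ccna2 rose by 0.27 ± 0.09 (adjusted p = 0.0270), from 6.54 ± 0.17 to 6.81 ± 0.45 (SD, n = 18 each). Its call was lost without chow ZT4 sample 1, with median centring and with quantile normalization. The mitotic cyclin Ccnb2 differed by 0.18 ± 0.08 (adjusted p = 0.106), and Cdk1, its kinase, by 0.07 (-0.07 to 0.22).

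Of the 5 tested mitotic kinase and checkpoint genes, only Aurka was called. Aurka, the kinase of the spindle poles, ran from 6.28 through 6.33 to 6.65 on chow and from 6.39 through 6.54 to 6.94 on the high fat diet. The difference over the day was 0.18 ± 0.04 (adjusted p = 0.00163). It was positive at 6 of 6 times, from 0.09 at ZT16 to 0.31 at ZT0. Mcm4, Rrm2 and Aurka were the 3 tested genes with this property, which 7.62% of all genes shared. Aurkb, the kinase of the chromosomal passenger complex, differed by 0.12 ± 0.05 (adjusted p = 0.103). Bub1b and Cdc20, which hold and release the spindle checkpoint, each differed by 0.07, with intervals of -0.02 to 0.16 and -0.04 to 0.18. Birc5, the survivin subunit of the passenger complex, differed by -0.02 (-0.12 to 0.07).

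**Figure D1:**
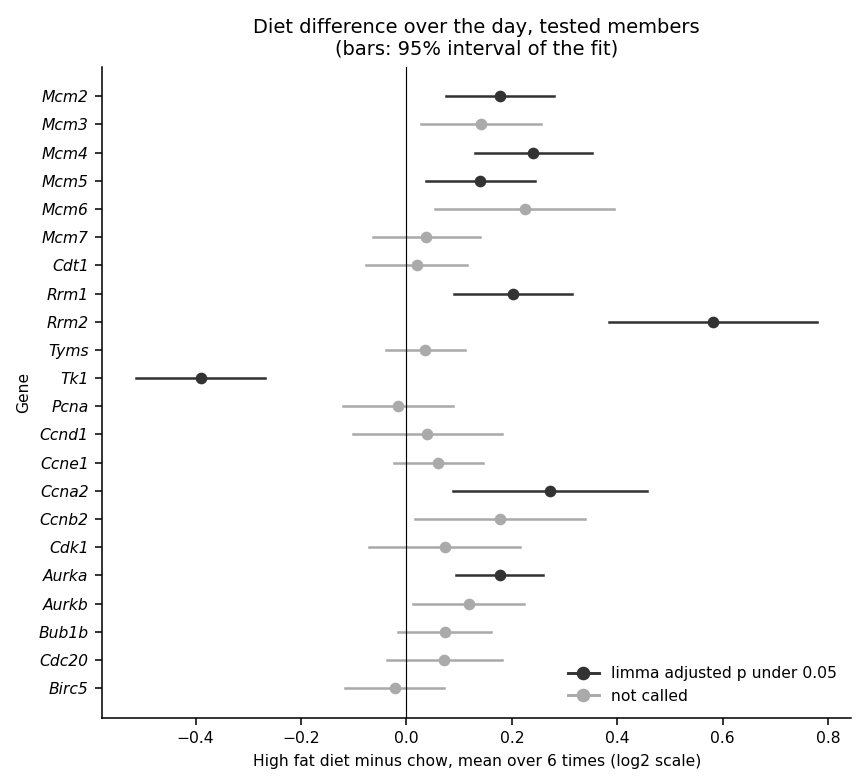
Diet difference over the day for the 22 tested genes. Each point is the mean high fat diet minus chow difference over 6 times on the log2 scale, the bar its 95% interval from the limma fit, and dark points have an adjusted p under 0.05. Rrm2 lies farthest to the right at 0.58 and Tk1 farthest to the left at -0.39, and 19 of the points lie above 0.

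The 9 dim genes were examined in a fit without the intensity limit, in which 8.18% of all genes were higher on the high fat diet. All 9 had a difference above 0 and 5 were called higher. Top2a, the topoisomerase that untangles sister chromosomes, had the largest value at 0.32 ± 0.06. It ran from 5.30 through 5.69 to 5.98 on chow and from 5.58 through 5.94 to 6.55 on the high fat diet, and its high fat diet mean was higher at 6 of 6 times. Mki67, the nuclear protein widely used as a marker of proliferation, differed by 0.28 ± 0.07. The spindle proteins Nusap1 and Kif11 differed by 0.21 and 0.16, and the checkpoint kinase Bub1 by 0.17. Plk1, the Polo kinase, Ccne2, the second E cyclin, Prc1, which bundles the central spindle, and Cdc6 differed by 0.15, 0.14, 0.13 and 0.0043 and were not called. A dimmer probe set that the annotation also pairs with Top2a gave -0.07 ± 0.07, so the probe sets of Top2a disagree. That probe set is annotated by 1 cDNA, which the annotation elsewhere pairs with both Top2a and Hibadh, so it may not measure Top2a. The mean levels of all 9 lie below the 95th percentile of the olfactory receptor genes.

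Each time of day was then compared on its own. At ZT12, the change from light to dark, 7 of 22 genes were higher on the high fat diet and none was lower, against 2.47% and 2.97% of all genes. The 7 were Mcm2, Mcm3, Mcm4, Mcm5, Mcm6, Rrm1 and Rrm2, that is 5 of the 6 ring subunits and both reductase subunits. All 3 high fat diet samples lay above all 3 chow samples for these 7 and also for Mcm7, Pcna, Ccna2 and Aurka, which is 11 of 22 genes against 11.7% of all genes. For Tk1 they all lay below, as for 13% of all genes.

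The values at ZT12 show this sample by sample. Rrm2 was 7.34, 6.93 and 7.08 in chow and 7.84, 8.24 and 8.44 in the high fat diet, a difference of 1.05 ± 0.23 (adjusted p = 0.00582). Rrm1 was 7.41, 7.15 and 7.44 against 7.86, 8.12 and 8.03, a difference of 0.67 ± 0.13 (adjusted p = 0.00194). Both reductase subunits therefore stood apart in every sample. Mcm4 was 6.76, 6.43 and 6.94 on chow and 7.33, 7.60 and 7.22 on the high fat diet, a difference of 0.68 ± 0.13 (adjusted p = 0.00188). Mcm6 was 6.69, 6.76 and 7.02 against 7.56, 7.95 and 7.36, the largest difference of the ring at 0.80 ± 0.20 (adjusted p = 0.0159). Mcm2 was 6.63, 6.92 and 6.92 against 7.03, 7.74 and 7.39, a difference of 0.56 ± 0.12 (adjusted p = 0.00493). The second high fat diet sample was the highest of its group for these ring subunits. Mcm5 was 6.97, 6.83 and 7.06 against 7.17, 7.70 and 7.42, a difference of 0.48 ± 0.12 (adjusted p = 0.0182). Mcm3 was 6.08, 6.07 and 5.97 against 6.65, 6.76 and 6.14, a difference of 0.48 ± 0.14 (adjusted p = 0.0333), at levels near the olfactory background. The remaining subunit, Mcm7, was 7.36, 7.47 and 7.46 against 7.48, 7.93 and 7.68, a smaller difference of 0.27 that was not called (adjusted p = 0.211).

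How many of these were called changed when single samples were left out. Leaving out a sample weakens the test for every gene at that time, and the share of all genes called then is not given here. Without high fat diet ZT12 sample 2 the count at ZT12 was 3, with Mcm4 at 0.57, Rrm1 at 0.61 and Rrm2 at 1.02 still called, while Mcm2 was 0.39, Mcm3 0.35, Mcm5 0.34 and Mcm6 0.64 with adjusted p of 0.0690, 0.200, 0.146 and 0.112. Without chow ZT12 sample 2 it was 4, and Mcm3, Mcm5 and Mcm6 were not called. Mcm3 also lost its call without each of the other chow samples or high fat diet sample 1, Mcm5 without high fat diet sample 3, and Mcm6 without chow sample 1. Mcm4, Rrm1 and Rrm2 kept their call at ZT12 in all 47 alternatives.

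**Figure D2:**
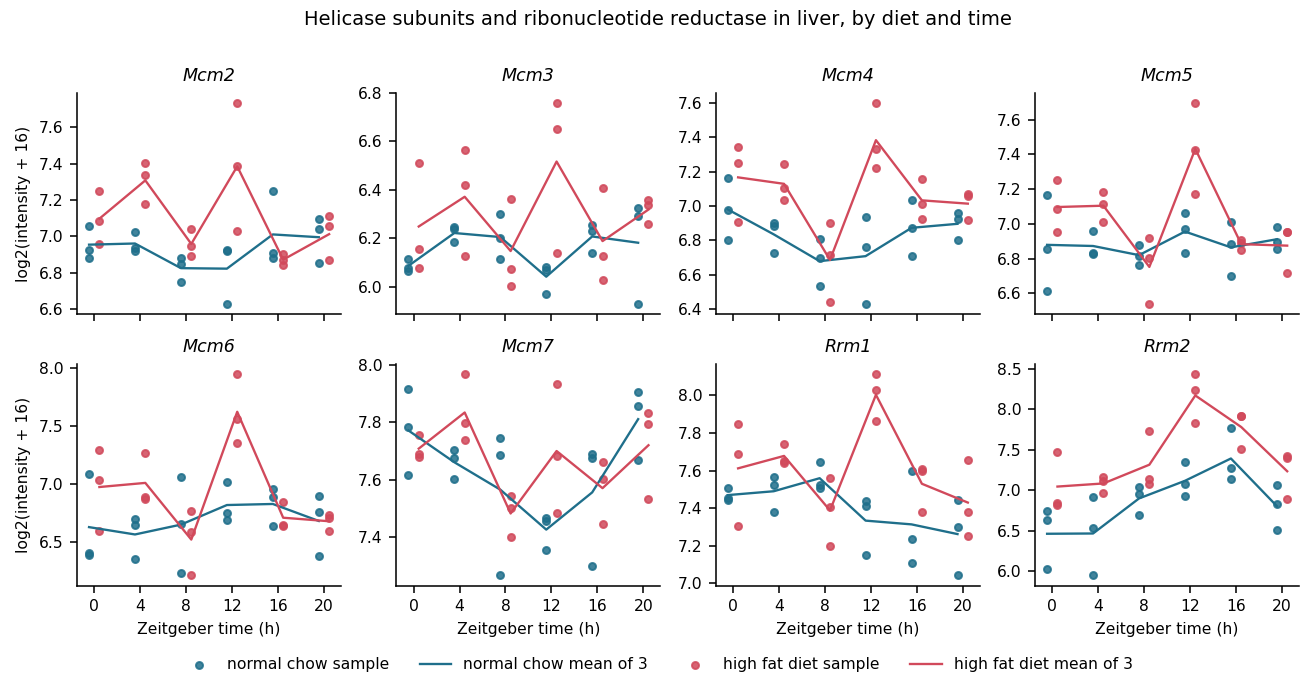
Helicase subunits and ribonucleotide reductase over the day. Points are samples and lines join means of 3 samples, with Zeitgeber time in hours on the x axis and log2(intensity + 16) on the y axis, blue for normal chow and red for high fat diet. At 12 h the red points of all 8 genes lie above the blue points, and at 16 and 20 h the colours overlap.

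At ZT0, the start of the light phase, 3 of the 4 genes called higher act in later phases of the cycle. Higher were Ccnb2, Ccna2, Cdc20 and Ccne1, which is 4 of 22 against 3.37% of all genes, and Tk1 was lower, against 3.75%. Ccnb2 was 7.51, 7.43 and 7.29 in chow and 8.96, 7.75 and 7.86 in the high fat diet, a difference of 0.78 ± 0.19 (adjusted p = 0.0140). Ccna2 was 6.78, 6.48 and 6.52 against 8.31, 6.78 and 7.08, a difference of 0.80 ± 0.22 (adjusted p = 0.0248). The first high fat diet sample stood more than 1 log2 unit above the other two for both cyclins. Cdc20 was 6.19, 6.04 and 5.86 against 6.88, 6.15 and 6.32, so that the groups overlapped, with a difference of 0.42 ± 0.13 (adjusted p = 0.0450). Ccne1 was 6.56, 6.65 and 6.31 against 7.02, 6.84 and 6.87, an even shift of 0.40 ± 0.10 (adjusted p = 0.0154). Tk1 was 8.07, 8.28 and 8.00 against 7.45, 7.56 and 7.68, a fall by 0.55 ± 0.15 (adjusted p = 0.0202) that ran against the cyclins in the same samples. In all, 5 tested genes had every high fat diet sample above every chow sample at ZT0, where 14.9% of all genes did, and Tk1 had every one below, as 11.5% did.

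High fat diet ZT0 sample 1 was above its group mean for 21 of the 22 tested genes. Without high fat diet ZT0 sample 1, none of the 22 was called at ZT0. Then Ccnb2 differed by 0.39 (adjusted p = 0.134), Ccna2 by 0.33 (0.243), Cdc20 by 0.20 (0.349), Ccne1 by 0.35 (0.085) and Tk1 by -0.50 (0.0911), each with the sign it had before. Without chow ZT0 sample 3 Tk1 alone was called, at -0.61, and without chow ZT0 sample 2 Ccnb2 and Ccne1 were called, at 0.79 and 0.47. Cdc20 lost its call in 14 of 46 alternatives, and Tk1 also lost its ZT0 call without high fat diet ZT0 sample 2. Fewer samples weaken the test for every gene at that time, and the share of all genes called in these fits is not given here.

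The dim mitotic genes had the same sample at the top. Without the intensity limit, 4 of the 9 dim genes were called higher at ZT0, against 2.95% of all genes. Plk1 was 6.00, 5.93 and 4.83 on chow and 7.06, 6.08 and 5.97 on the high fat diet, a difference of 0.78 (adjusted p = 0.0352). Mki67 was 6.26, 5.96 and 6.11 against 7.36, 6.24 and 6.62, a difference of 0.63 (adjusted p = 0.0273). Nusap1 was 5.95, 5.65 and 5.56 against 6.73, 6.01 and 6.07, a difference of 0.55 (adjusted p = 0.0227). Of the 4, Nusap1 was the one whose diets did not overlap, and Bub1 had a difference of 0.41 (adjusted p = 0.0375). At ZT12 the same fit called Top2a among the dim genes, at 0.53 (adjusted p = 0.0408), against 1.5% of all genes.

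**Figure D3:**
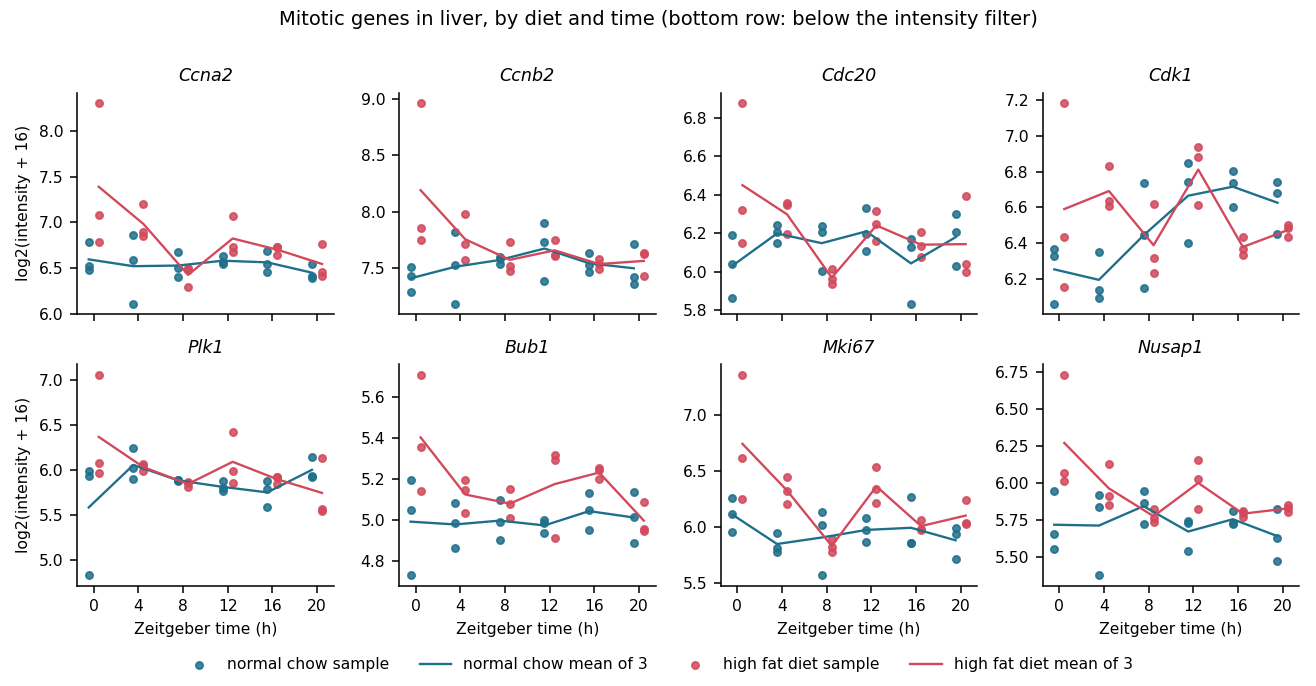
Mitotic genes over the day. Points are samples and lines join means of 3 samples, with Zeitgeber time in hours on the x axis and log2(intensity + 16) on the y axis, and the bottom row holds genes below the intensity limit. At 0 h 1 high fat diet sample stands above all others in each panel, at 8.96 for Ccnb2 and 7.36 for Mki67.

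At ZT4 none of the 22 genes was called, against 2.29% of all genes higher and 1.4% lower, although 12 of the 22 had an unadjusted p under 0.05 where 17% of all genes did. With array weights Mcm2, Ccne1 and Aurkb were called, against 7.75% of all genes. All 3 high fat diet samples lay above all 3 chow samples for 11 genes, against 11.6% of all genes. These were Mcm2, Mcm4, Mcm5, Mcm6, Mcm7, Rrm1, Rrm2, Tyms, Ccnd1, Ccne1 and Cdk1. Cdk1 was 6.09, 6.14 and 6.35 on chow and 6.83, 6.61 and 6.63 on the high fat diet, a difference of 0.50 ± 0.17 (adjusted p = 0.102). Ccnd1 was 8.47, 8.68 and 8.83 against 9.44, 9.01 and 8.94, a difference of 0.47 ± 0.17 (adjusted p = 0.123). Tk1 was the one gene with all its high fat diet samples below chow at this time, against 9.95% of all genes.

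Fewer genes differed at the other times. At ZT8 no gene of the set was called (0.279% of all genes higher, 0.494% lower) and none had an unadjusted p under 0.05, against 9.41% of all genes. At ZT8 3 genes, Mcm2, Rrm2 and Aurka, had all high fat diet samples above chow, against 7.08%. At ZT16 none was called (1.05% and 1.18%) and 2 had an unadjusted p under 0.05, against 13.2%. No gene had its high fat diet samples all above chow at ZT16, where 9.64% of all genes did, and Tk1, Ccnd1 and Cdk1 had them all below, against 8.32%. At ZT20 Tk1 was the single call, against 0.803% of all genes lower and 1.24% higher. It alone had all its high fat diet samples below chow (6.52% of all genes), and none had them above (8.99%). It was 8.31, 8.32 and 8.49 on chow and 7.64, 8.10 and 7.59 on the high fat diet, a fall by 0.60 ± 0.15 (adjusted p = 0.0206). This call was lost with median centring and without chow ZT20 sample 3 (-0.54, adjusted p = 0.144), high fat diet ZT20 sample 1 (-0.53, 0.0978) or sample 3 (-0.51, 0.157).

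**Figure D4:**
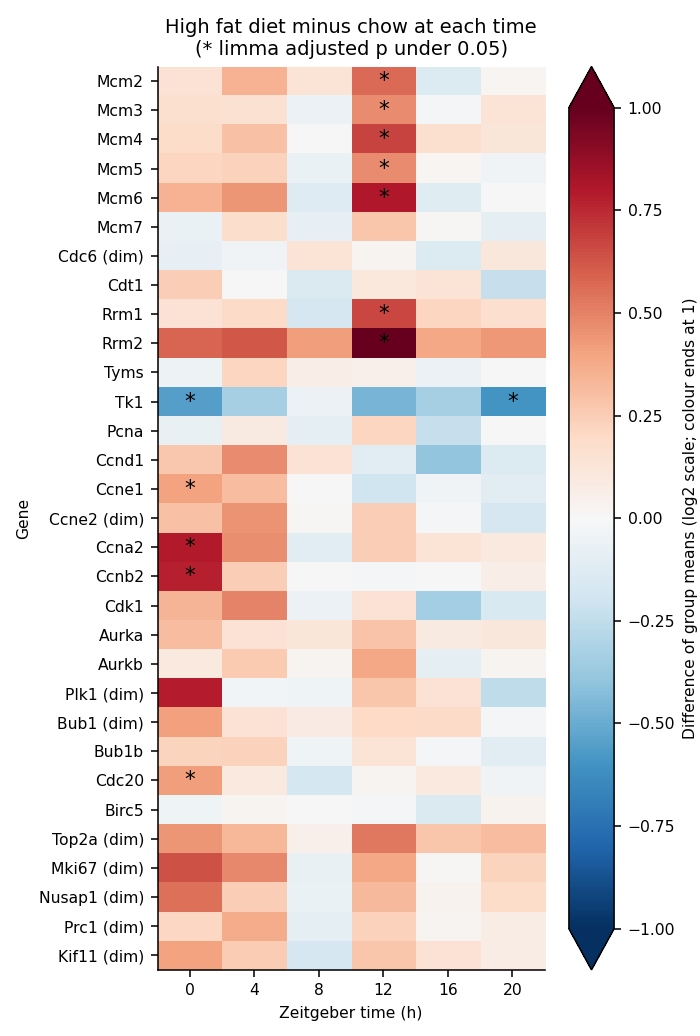
Difference of group means, high fat diet minus chow, for the 31 genes at each Zeitgeber time in hours. Red is higher and blue lower on the high fat diet on the log2 scale with colour ending at 1, stars mark an adjusted p under 0.05, and dim genes were not tested. The stars fall at 0 h, 12 h and 20 h, with 7 at 12 h.

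Whether the diet difference itself depended on time was tested separately, and the answer changed with the weighting of the arrays. In the F test of diet by time, 0 of 22 genes were called, against 0.631% of all genes, and 9 of 22 had an unadjusted p under 0.05 where 13.4% of all genes did. With array weights, which count noisier arrays less, 7 of 22 were called, against 13.3% of all genes. These were Mcm2, Mcm4, Rrm1, Cdt1, Tk1, Ccne1 and Aurkb. A contrast of each time with the mean of the other 5 was added after the values had been seen. It called 0 of 22 genes at any time, against 0.222% of all genes at ZT0, 0.043% at ZT4, 0.0931% at ZT8, 0.1% at ZT12, 0 at ZT16 and 0.00717% at ZT20. At ZT12, 10 of 22 had an unadjusted p under 0.05, against 6.62% of all genes, and 9 of them were more positive there and Ccne1 more negative. The difference at ZT12 exceeded that at the other times by 0.56 ± 0.14 for Rrm1 (adjusted p = 0.146), by 0.52 ± 0.15 for Mcm4 (0.189) and by 0.46 ± 0.13 for Mcm2 (0.236). At ZT0, 5 of 22 had an unadjusted p under 0.05, against 14.2% of all genes, and the excess was 0.41 ± 0.11 for Ccne1 (adjusted p = 0.0964) and 0.72 ± 0.21 for Ccnb2 (0.113). By this contrast, run without array weights, the differences at ZT12 and ZT0 are not shown to exceed those at the other times.

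On chow, a 24 h wave was called for 6 of 22 genes, and on the high fat diet for 4 of 22, where 20.6% and 11% of all genes were called. Rrm2, Tk1, Ccne1 and Ccnd1 were called on both diets. Amplitude is how far the fitted wave rises above its mean, in log2 units. Rrm2 had an amplitude of 0.46 ± 0.10 with its peak at 14.1 h on chow (adjusted p = 0.00214), and of 0.54 ± 0.10 with its peak at 13.3 h on the high fat diet (adjusted p = 0.000554). On chow, Rrm2 was low at ZT0 with 6.63, 6.74 and 6.02 and at ZT4 with 5.95, 6.53 and 6.92, and highest at ZT16 with 7.77, 7.14 and 7.27. On the high fat diet it was lowest at ZT0 with 7.48, 6.82 and 6.84 and highest at ZT12. Tk1 peaked at 14.2 h on chow with an amplitude of 0.29 ± 0.06 (adjusted p = 0.00358) and at 12.0 h on the high fat diet with 0.37 ± 0.06 (adjusted p = 0.000433). At every time the high fat diet mean of Tk1 lay below the chow mean.

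Both G1 cyclins had their fitted peak earlier on the high fat diet. Ccne1 peaked at 11.2 h with an amplitude of 0.33 ± 0.05 on chow (adjusted p = 1.4e-05) and at 7.53 h with 0.21 ± 0.05 on the high fat diet (adjusted p = 0.00669). Its chow samples were 6.56, 6.65 and 6.31 at ZT0 and 7.17, 7.22 and 7.30 at ZT12. On the high fat diet they were 7.02, 6.84 and 6.87 at ZT0 and 7.10, 7.31 and 7.02 at ZT8. Ccnd1 peaked at 11.4 h with 0.27 ± 0.08 on chow (adjusted p = 0.0391) and at 6.42 h with 0.37 ± 0.08 on the high fat diet (adjusted p = 0.00392). Its chow samples at ZT12 were 9.15, 9.08 and 9.16, and its high fat diet samples at ZT4 were 9.44, 9.01 and 8.94. The chow wave of Ccnd1 lost its call in 13 of 48 alternatives. The test that the waves of both diets are equal called 0 of 22 genes, against 0.0287% of all genes, and 4 of 22 had an unadjusted p under 0.05 where 8.32% of all genes did. It gave an adjusted p of 0.252 for Ccne1 and 0.380 for Ccnd1, so the earlier peaks are not shown to differ from chow in this fit. With array weights Ccne1 was called, against 1.33% of all genes.

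Cdk1 and Mcm7 were called on chow. Cdk1 had an amplitude of 0.28 ± 0.07 with its peak at 15.1 h (adjusted p = 0.0165), at levels near the olfactory background. Its chow samples rose from 6.09, 6.14 and 6.35 at ZT4 to 6.81, 6.74 and 6.60 at ZT16, while its high fat diet samples at ZT16 were 6.37, 6.34 and 6.43. Mcm7 had a small wave of 0.18 ± 0.05 with its peak at 23.1 h (adjusted p = 0.0316), a call lost in 10 of 48 alternatives. The test of a difference between diets gave an adjusted p of 0.465 for Cdk1. A test over the 6 time means, which assumes no wave shape, called 4 genes on chow and 10 on the high fat diet, where 21% and 16.8% of all genes were called. On chow these were Rrm2, Tk1, Ccnd1 and Ccne1. On the high fat diet they were the same 4 genes with Mcm2, Mcm4, Mcm5, Mcm6, Rrm1 and Ccna2.

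**Figure D5:**
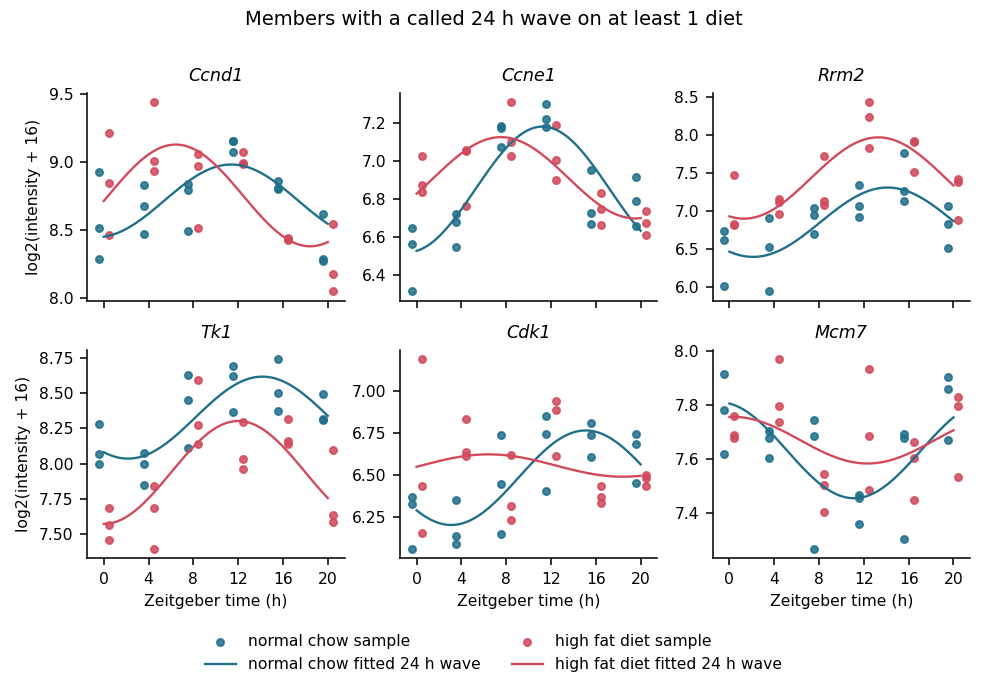
Genes with a called 24 h wave on chow or high fat diet. Points are samples and curves are the fitted waves, with Zeitgeber time in hours on the x axis and log2(intensity + 16) on the y axis. The high fat diet curve of Tk1 runs below the chow curve throughout, and the fitted peak of Ccne1 lies at 7.53 h on the high fat diet and 11.2 h on chow.

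Promoters are shown for genes called at ZT12 and at ZT0. The window runs from 250 bases before to 50 bases after the start of the gene, from RefSeq on mouse build GRCm38.p6, and 27 of the 32 genes had an entry there. E2F factors are known to bind words such as TTTCCCGC, TTTCGCGC, TTTGCCGC and TTTGGCGC. The cell cycle homology region has the core TTTGAA, and CCAAT is bound by the factor NF-Y, and both are known from promoters of mitotic genes. All were searched on both strands, and of 73 matches in promoters of the set 1 pair of different motifs overlapped. Capitals in the sequences below mark the matches. Mcm5 (chr8:75109259-75109558, plus strand) and Mcm6 (chr1:128359656-128359955, minus strand) were called at ZT12, and Ccnb2 (chr9:70421505-70421804, minus strand) and Cdc20 (chr4:118437294-118437593, minus strand) at ZT0. They were chosen as promoters with several matches and do not stand for all genes called at these times.
Mcm5: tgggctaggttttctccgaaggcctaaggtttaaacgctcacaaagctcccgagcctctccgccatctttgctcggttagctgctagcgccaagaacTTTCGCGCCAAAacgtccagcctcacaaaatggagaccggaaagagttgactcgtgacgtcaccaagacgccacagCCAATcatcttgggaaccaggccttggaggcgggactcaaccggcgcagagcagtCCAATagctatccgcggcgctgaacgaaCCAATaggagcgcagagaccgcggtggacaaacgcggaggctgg
Mcm6: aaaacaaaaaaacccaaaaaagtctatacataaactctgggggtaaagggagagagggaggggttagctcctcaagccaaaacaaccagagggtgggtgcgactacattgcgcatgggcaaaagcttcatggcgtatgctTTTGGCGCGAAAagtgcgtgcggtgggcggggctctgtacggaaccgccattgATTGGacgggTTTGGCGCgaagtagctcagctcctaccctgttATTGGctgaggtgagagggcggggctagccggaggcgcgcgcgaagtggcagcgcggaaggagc
Ccnb2: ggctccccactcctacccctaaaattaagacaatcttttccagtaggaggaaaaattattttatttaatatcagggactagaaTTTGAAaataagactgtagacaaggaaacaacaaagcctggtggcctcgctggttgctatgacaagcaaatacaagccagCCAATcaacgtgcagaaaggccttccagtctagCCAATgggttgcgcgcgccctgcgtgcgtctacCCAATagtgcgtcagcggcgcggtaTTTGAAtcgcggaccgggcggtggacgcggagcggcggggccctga
Cdc20: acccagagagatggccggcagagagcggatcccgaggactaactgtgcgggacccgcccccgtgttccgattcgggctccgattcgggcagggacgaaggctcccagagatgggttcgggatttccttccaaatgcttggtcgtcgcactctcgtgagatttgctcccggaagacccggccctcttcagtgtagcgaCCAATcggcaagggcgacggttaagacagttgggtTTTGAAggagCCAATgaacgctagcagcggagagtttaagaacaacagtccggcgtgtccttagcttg

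In the promoter of Mcm5, an E2F word on each strand overlaps the other, and 3 CCAAT words follow. Mcm6 holds 3 E2F words and 2 CCAAT words, and neither of these promoters holds TTTGAA. Ccnb2 holds 2 TTTGAA words and 3 CCAAT words, and Cdc20 holds 1 and 2, and neither holds an E2F word. The motifs do not split the genes by the time of their call. Among genes called at ZT12, the promoters of Mcm2, Rrm1 and Rrm2 hold no E2F word, and that of Mcm2 holds a TTTGAA. Of those called at ZT0, Ccne1 and Tk1 hold none of the motifs. The promoter of Cdk1, which was called at neither time, holds both an E2F word and TTTGAA. Over the set, an E2F word was found in 7 of 29 promoters, or 24.1%, against 2.26% of all 32851 promoters. TTTGAA was found in 41.4% against 17.9%, and CCAAT in 75.9% against 37.4%. The matches are letters in these windows and say nothing of binding in these livers.

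Other genes of the same processes were taken from lists of known factors, which were chosen with earlier results of these data known. Of 37 tested further replication factors, 6 were higher on the high fat diet over the day and 2 lower, and the shares of all genes were 11.2% and 9.8% for this and the next 3 lists. Orc5, of the origin recognition complex, rose by 0.22 ± 0.07, Mcm8, a helicase of DNA repair, by 0.16 ± 0.05, Rfc5, which loads the clamp, by 0.16 ± 0.05, and Rpa1, which coats single-stranded DNA, by 0.12 ± 0.04. Gins3, which joins the helicase at the fork, rose by 0.11 ± 0.04, and Chaf1b, which places histones behind the fork, fell by 0.13 ± 0.05. The other gene called lower, Mcm10, fell by 0.22 ± 0.07, and the other called higher, Pole, rose by 0.16 ± 0.05. The median over these 37 genes was 0.06. Of 21 tested further mitotic genes, 5 were higher and none lower, with a median of 0.09. Spc25 and Spc24 of the kinetochore rose by 0.57 ± 0.11 and 0.16 ± 0.04, Mad2l1 of the spindle checkpoint by 0.46 ± 0.09, Ube2c, which works with Cdc20 on cyclin B, by 0.40 ± 0.10, and the condensin subunit Smc2 by 0.27 ± 0.06. Mcm8, Gins3, Pole, Chaf1b and Smc2 had means on both diets below 6.57, the 95th percentile of the olfactory receptor genes.

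Of 20 tested genes that slow the cycle, 4 were higher and none lower, with a median of 0.05. Ccng1, a target of p53, rose by 0.31 ± 0.05, Btg1, an antiproliferative factor, by 0.27 ± 0.06, Wee1, which holds Cdk1 inactive, by 0.26 ± 0.09, and Rbl1, a relative of the retinoblastoma protein, by 0.20 ± 0.05. Of 23 G1 drivers and E2F factors, 1 was higher and 2 were lower, with a median of -0.02. Myc, a growth-promoting transcription factor, was at 7.61 ± 1.11 on chow and 6.55 ± 0.40 on the high fat diet (SD, n = 18 each), and fell by 1.06 ± 0.23 (adjusted p = 0.000907). E2f2, an activating E2F, rose by 0.14 ± 0.05 and E2f6, a repressing one, fell by 0.12 ± 0.04. Rbl1 and E2f2 also had means on both diets below 6.57.

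Markers of other cells in liver also differed with diet. The median over 17 tested macrophage markers was 0.28. Of these, 11 were higher on the high fat diet and none lower, against 11.2% and 9.8% of all genes. They include Mpeg1 at 0.57 ± 0.07, Cd5l at 0.56 ± 0.10, Clec4f of Kupffer cells at 0.31 ± 0.07 and Lgals3 at 0.24 ± 0.06. The summed intensity of all 20 measured macrophage markers ran from 3344 through a median of 5351 to 8297 in chow samples. In high fat diet samples it ran from 4823 through 6544 to 10842. These sums include Ccr2, Gpnmb and Cd14, which lay below the intensity limit. At ZT0, 9 of the 17 tested markers were higher, against 3.37% of all genes. The sums were 5302 to 5828 on chow and 9280 to 10842 on the high fat diet. At ZT12, 2 of 17 were higher, against 2.47% of all genes, with sums of 3344 to 5622 and 5292 to 7979. At the other 4 times none was called. The times at which cell cycle genes were called thus include both times at which macrophage markers were called. Median deviations from the mean over all 36 samples follow for high fat diet samples 1, 2 and 3 in turn. At ZT0 they were 0.33, -0.03 and 0.03 for the 22 cell cycle genes, and 0.44, 0.63 and 0.72 for the 17 macrophage markers. At ZT12 they were 0.19, 0.30 and 0.09 for the cell cycle genes, and 0.33, -0.19 and 0.26 for the macrophage markers. The part of macrophages in the result was not tested. Of 8 tested lymphocyte markers 3 were higher, against 11.2% of all genes. They were Cd4 at 0.30 ± 0.06, Ptprc at 0.22 ± 0.08 and Ccl5 at 0.21 ± 0.06. The median over the 8 was 0.11, and 5 of the 8 differences were above 0. Cd3e, Cd8a and Cd79b differed by -0.01, -0.02 and -0.08 and were not called. The summed intensity of the 15 measured lymphocyte markers was 847 to 1442 on chow and 942 to 1314 on the high fat diet. The lymphocyte sums did not overlap at ZT0 (938 to 1007 on chow, 1142 to 1228 on the high fat diet) or at ZT12 (847 to 962 and 1071 to 1314). At ZT12, 1 of the 8 markers was called higher, against 2.47% of all genes. A further 7 of that list, with Cd3d, Cd79a and Ms4a1 among them, lay below the limit and are part of the sums.

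The remaining marker lists were counted in the same way over the day, where 11.2% of all genes were higher and 9.8% lower. Of 5 neutrophil markers and 4 erythroid markers none was called in either direction. Of 8 hepatocyte markers 3 were lower, of 12 endothelial markers 1 was lower, of 12 stellate cell markers 4 were higher and of 3 bile duct markers 1 was higher. Whether cells of any of these types carry the cell cycle RNA was not tested.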

How the data were processed

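Liver RNA from 36 samples was hybridised to 1 Affymetrix whole-transcript gene array each. The authors deposited a linear intensity for each of 35556 probe sets, made with Affymetrix Expression Console 1.1.1 and PLIER 2.0 per the submitters' processing notes. The sources used here do not give the background correction or normalization, and no further scaling was applied. The number of arrays limits the precision.

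The platform annotation paired 21789 probe sets with 1 gene, 1621 with several and 12146 were unlisted and are unnamed here. Symbols were updated by gene identifier for 99.6%. The brightest single-gene probe set over all samples stood for a gene. Log2(intensity + 16) was fitted in limma 3.58.1 (R 4.3.3) with 12 group means and 24 residual degrees of freedom, over 13956 genes, those whose mean exceeded the 30th percentile. Contrasts gave the diet difference over the day and at each time, and an F test of 5 contrasts the dependence on time. A second fit with a 24 h cosine and sine for each diet tested rhythm. All p-values were adjusted by Benjamini-Hochberg over all tested genes, each contrast on its own, and a call is an adjusted p under 0.05. The scripts were tested on simulated data with known changes.

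All 32 genes of the set are named. From each further list the 4 tested genes of smallest p for diet, and those of smallest p for rhythm, could be named, and of those the called ones are described. Mcm10, Pole, Cd3e, Cd8a and Cd79b are given in addition. Members and lists were chosen with earlier results of these data known. Alternatives were scaling, filters, offsets, probe set averaging, array weights, a variance trend, a replicate block, a stricter threshold and leaving out each sample.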

Additional observations from a re-analysis of the deposited data

How the results depend on the processing

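In up to 47 alternatives per gene, no called diet difference reversed its sign, and the calls over the day of Rrm2, Tk1, Mcm4, Mcm2 and Aurka were lost in none. The counts that follow are of genes of the set. Except where given above, the shares of all genes called under these settings are not given here. The count over the day was 8 and fell to 5 with median centring. At ZT0 it was 5 and became 3 with quantile normalization and 0 at an adjusted p under 0.01. It was 2 with a filter at the median of mean intensity, where Ccna2, Ccne1 and Cdc20 fell below the filter and were not tested. With no filter, which adds the 9 dim genes, it was 8. Of these 8, 4 were dim genes, while Cdc20 lost its call (adjusted p = 0.0539). At ZT12 the count was 7, and 4 at an adjusted p under 0.01. At ZT20 it was 1, and 0 with median centring and at an adjusted p under 0.01. Array weights gave 3 calls at ZT4, 7 for diet by time and 1 for a difference in rhythm, where there had been 0. Rhythmic genes on chow were 3 at an adjusted p under 0.01, and on the high fat diet 10 by the F test over 6 time means. Diet by time gave 1 call when the 4 arrays given least weight were dropped, which was added after seeing the data. Beyond which genes the filters let in, the cause of these changes was not tested.

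Leaving out each sample in turn gave 6 to 10 calls over the day, 0 to 6 at ZT0, 0 to 1 at ZT4, 3 to 8 at ZT12, 0 to 1 at ZT20, 0 to 0 at ZT8 and ZT16, 0 to 1 for diet by time, 0 to 0 for a difference in rhythm, 4 to 6 for rhythm on chow and 4 to 4 on the high fat diet. The shares of all genes called in these fits are not given here. The call at ZT4 appeared without high fat diet ZT0 sample 1 or high fat diet ZT4 sample 3, and that for diet by time without high fat diet ZT4 sample 3 or high fat diet ZT12 sample 1. Mcm6 gained a call over the day in 12 alternatives, Mcm3 in 5, Aurkb in 4 and Ccnb2 in 2.

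Samples that share a replicate number in the labels did not deviate together (correlation of deviations -0.41 to 0.35 over 18 pairs, over 0.1 in 5), so the numbers were not taken as pairs. With the replicate number as a block the counts were 8 over the day, 6 at ZT0 and 7 at ZT12. The 9 dim genes and 8 of the tested ones had mean levels within the range of genes that liver is not expected to use. Among these 8 are Aurka, Cdc20 and Mcm3, called by diet, and Cdk1, called for a wave on chow. Aurkb and Cdt1, called with array weights, are also among them.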

Other observations

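Among the genes that slow or drive the cycle, several had called daily waves. Wee1 had an amplitude of 1.16 ± 0.11 on the log2 scale with its peak at 12.2 h on chow, and of 1.04 ± 0.11 with its peak at 11 h on the high fat diet. Ccng2, a cyclin linked to growth arrest, had an amplitude of 0.37 ± 0.07 with its peak at 20.4 h on chow and of 0.67 ± 0.07 at 19.2 h on the high fat diet. Btg1 peaked at 23.4 h with 0.26 ± 0.07 on chow and at 20.6 h with 0.37 ± 0.07 on the high fat diet. E2f8, an E2F repressor linked to hepatocyte polyploidy, peaked at 20.2 h with 0.55 ± 0.12 on chow and at 17.7 h with 0.56 ± 0.12 on the high fat diet. All 4 genes were called rhythmic on both diets, and none was called for a difference in rhythm between them. Myc was called rhythmic on chow, with an amplitude of 0.91 ± 0.22 (adjusted p = 0.0085), and not on the high fat diet, where its amplitude was 0.31 ± 0.22 (adjusted p = 0.683), and the difference in rhythm had an adjusted p of 0.724. A wave was called for 20.6% of all genes on chow and 11% on the high fat diet. It was called for 11 of 37 further replication factors on chow and 2 on the high fat diet, and for 2 and 4 of 21 further mitotic genes, and for 7 and 5 of 20 genes that slow the cycle and 8 and 2 of 23 G1 drivers and E2F factors.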
